A study of Mus musculus with 3 samples.

Results

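Neutrophils were taken from single-cell RNA sequencing of whole neuroblastomas of 3 TH-MYCN mice, in which MYCN is driven by the tyrosine hydroxylase promoter in cells of the sympathetic lineage. All mice were heterozygous for the transgene. Each gave 1 tumor, and mice 1, 2 and 3 were 62, 79 and 63 days old. The 3 tumors formed a single group with no control tissue, so the comparisons below are between classes of cells within tumors. Tumors were cut and digested whole with Liberase and DNase, without sorting, and cells were captured with a droplet kit that reads the 3′ end of transcripts and counts each molecule once by a unique molecular identifier (UMI).

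Of 5650 barcodes kept by the authors, 320 met the rule for neutrophils. Cells were selected on raw counts, and a kept barcode was a neutrophil if at least 3 of the 6 genes Csf3r, Cxcr2, Il1r2, Retnlg, G0s2 and Hdc had a UMI, fewer than 2 of the T cell genes Cd3e, Cd3d, Cd3g and Trac, and fewer than 2 of the B cell genes Cd79a, Cd79b and Ms4a1. Tumor 1 held 249 neutrophils among 1914 kept barcodes, or 13.01% (exact 95% binomial interval 11.5 to 14.6). Tumor 2 held 52 among 1221, or 4.26% (3.20 to 5.55), and tumor 3 held 19 among 2515, or 0.755% (0.455 to 1.18). The lymphocyte genes left out 5 further barcodes of tumor 1. The mean share was 6.01% ± 6.31 (SD, n = 3), and the intervals of the 3 tumors, which cover counting error only, did not overlap. For every 100 mononuclear phagocytes, the macrophages and monocytes of the same tumors, there were 44.7, 102 and 20.7 neutrophils.

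Neutrophils are short-lived granulocytes that leave the bone marrow along CXCR2 ligands and mature under granulocyte colony-stimulating factor. They fill their granules in a fixed order during maturation, azurophil granules first, then specific granules and last gelatinase granules, and stop making most granule proteins once mature. Their lifespan in tissue depends on the unstable survival protein MCL1, and activated neutrophils release IL-1β and CXC chemokines that attract more neutrophils. In tumors they are also described as polymorphonuclear myeloid-derived suppressor cells, so the sections below turn to granule, survival, chemokine and state genes.

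The promoters of 4 genes on which the results turn are shown first, as 250 bases upstream of the start of a transcript. Sequences are those of RefSeq on mouse build GRCm38.p6, written 5′ to 3′ on the strand of the gene, and capitals mark a searched motif on either strand. Cxcl2 (chr5:90903649-90903898, plus strand) and Csf1 (chr3:107760470-107760719, minus strand) encode secreted factors and each held an NF-kB motif (GGGA, any base, then TTTCC), in Cxcl2 from -97 to -88 and in Csf1 on the opposite strand from -154 to -145. Mmp8 (chr9:7558179-7558428, plus strand) and Lcn2 (chr2:32387740-32387989, minus strand) encode granule proteins and each held the C/EBP motif TTGCNNAA, at -19 to -12 and at -216 to -209.
Cxcl2: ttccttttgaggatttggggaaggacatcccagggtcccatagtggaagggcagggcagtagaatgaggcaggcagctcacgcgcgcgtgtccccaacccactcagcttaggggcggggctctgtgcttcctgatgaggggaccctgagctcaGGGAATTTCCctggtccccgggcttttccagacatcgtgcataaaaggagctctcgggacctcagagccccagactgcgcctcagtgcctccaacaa
Csf1: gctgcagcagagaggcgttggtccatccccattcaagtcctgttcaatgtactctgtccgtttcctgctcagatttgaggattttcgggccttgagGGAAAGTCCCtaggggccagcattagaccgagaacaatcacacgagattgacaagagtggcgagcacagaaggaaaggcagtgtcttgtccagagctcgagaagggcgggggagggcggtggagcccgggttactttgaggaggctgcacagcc
Mmp8: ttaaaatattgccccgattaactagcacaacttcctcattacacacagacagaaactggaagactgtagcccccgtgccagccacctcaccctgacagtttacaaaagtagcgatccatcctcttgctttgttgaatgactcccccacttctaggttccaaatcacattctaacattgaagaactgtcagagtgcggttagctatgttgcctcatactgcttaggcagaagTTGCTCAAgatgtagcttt
Lcn2: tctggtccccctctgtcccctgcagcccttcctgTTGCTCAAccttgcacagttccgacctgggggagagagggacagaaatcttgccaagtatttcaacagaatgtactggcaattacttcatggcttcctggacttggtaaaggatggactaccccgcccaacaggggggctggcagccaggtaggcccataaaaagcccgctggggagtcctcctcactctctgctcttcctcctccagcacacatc
The NF-kB motif was found in 0.356% and the C/EBP motif in 9.56% of all 32851 promoter windows of this length. In 304 windows of the 237 matched genes called higher in neutrophils than in mononuclear phagocytes below, these shares were 2.63% (8 windows) and 10.5%. In windows of the genes tested they were 0.453% and 7.85%. In windows of the genes called lower they were 0.952% and 10.95%. The windows of Il1b, Mxd1 and Trem1, which were also called higher, held neither motif. A match of letters is a description and does not show that a factor binds there.

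The cells carried further neutrophil genes that the rule did not use. S100a8 and S100a9, which encode the calprotectin subunits, were the 2 genes with the highest mean CPM over tumors, although S100a8 ranked below Gm42418 and Malat1 in tumor 3. S100a9 had 56168, 71308 and 26044 CPM in tumors 1, 2 and 3, where CPM are the UMIs of a gene per 1000000 UMIs of the summed cells. Il1b, Cxcl2, Junb and the serglycin gene Srgn were also among the 15 genes with the highest mean. Of the genes of the rule, Csf3r, the receptor of granulocyte colony-stimulating factor, had a UMI in 97.6%, 82.7% and 94.7% of the cells, and the resistin-like gene Retnlg in 51.8%, 90.4% and 36.8%. In tumor 1, 106 neutrophils carried all 6 genes of the rule and 26 carried 3. In tumor 3 these numbers were 3 and 6, so that membership there rested on fewer genes per cell. Just outside the rule, 84 kept barcodes had 2 of the genes, and 57 of them met the rule for mononuclear phagocytes. The share of a cell's UMIs from S100a8 and S100a9 had medians of 0.00920%, 5.75% and 0.0382% in neutrophils with 3 of the genes, and of 0%, 0.0450% and 0.0773% in barcodes with 2.

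Neutrophils held little RNA compared with mononuclear phagocytes, with medians of 2690, 2231.5 and 2082 UMIs per cell against 9082, 4436 and 4294.5. Their median mitochondrial share was 0.356%, 0.817% and 1.24%, below the 3.17%, 3.12% and 2.44% of all kept barcodes. Summed over cells, the neutrophils gave 906218, 126031 and 39471 UMIs, so that a single UMI in tumor 3 stands for 25.3 CPM. No neutrophil barcode was shared between tumors.

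Some neutrophil barcodes also carried markers of other cells. In tumor 1, 16 had 2 or more of the 6 phagocyte markers, with a median of 10906.5 UMIs, and they gave 21.2% of the UMIs of its neutrophils. No neutrophil of tumors 2 and 3 did so. Counting markers of phagocytes, fibroblasts, endothelial cells and tumor cells, 38, 13 and 2 neutrophils had 2 or more markers of one of these 4 other types. A single barcode of tumor 1 held 2426 of the 2739 fibroblast UMIs of its neutrophils. The globin and Alas2 transcripts of red cells reached 2731, 579 and 380 CPM in neutrophils, and 3472, 3881 and 1802 in all kept barcodes. Of the eosinophil markers, Epx, Prg2 and Il5ra had no UMI in the neutrophils of any tumor. In tumor 1, 234 neutrophils had 2 or more of the red cell markers, and these cells were kept in every fit. Counts of calls are given with and without the cells marked by genes of phagocytes or of the 4 types, and the part of free RNA in the results was not tested.

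Against mononuclear phagocytes of the same tumors, 304 of 4899 genes tested were higher in neutrophils and 213 were lower. Mononuclear phagocytes (557, 51 and 92 cells) were kept barcodes with at least 3 of 6 marker genes, among them Csf1r, Adgre1, Ms4a6c, Cx3cr1 and C1qa, that were not neutrophils. UMIs were summed per tumor and class, and edgeR's quasi-likelihood test was run with the tumor as a block and with Benjamini-Hochberg adjustment over all genes tested at a threshold of 0.05. The background share of calls was 6.21% higher and 4.35% lower, the median log2 fold change over all genes was -0.06, and the genes of either rule were not tested. Without neutrophils with phagocyte markers the counts were 330 (6.76%) and 317 (6.5%), and without those with markers of the 4 other types 381 (7.46%) and 374 (7.33%). In 9.9% of the genes all neutrophil values were above all phagocyte values, and in 19.9% all were below. The study names 35 of the 238 genes on the lists below, so their direction is not independent evidence. Levels are CPM of the class, and fold changes are on the log2 scale. They are shares of the UMIs of a class and not UMIs per cell. Phagocytes held more UMIs per cell, so a gene called higher in neutrophils can differ less, or not at all, per cell. Their SE is the size of the log2 fold change divided by the square root of the test's F statistic. It is not a spread over the 3 tumors. Adjusted p values below are of this edgeR test.

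**Figure D1:**
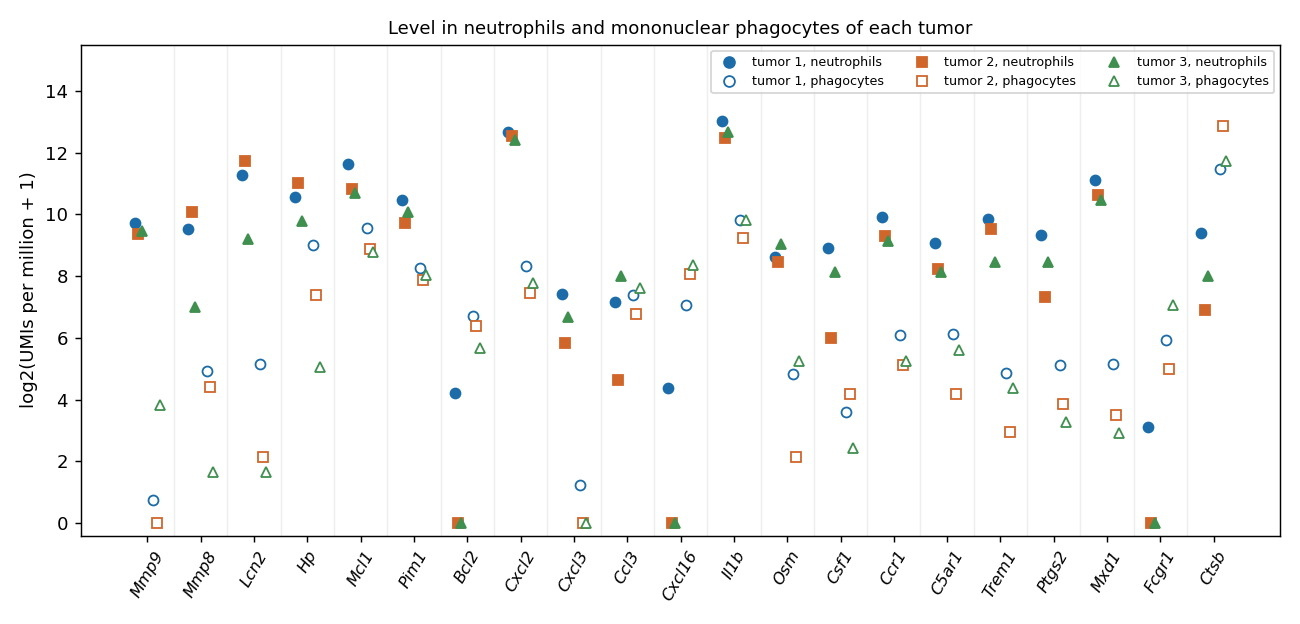
Level of named genes in the summed cells of each tumor (log2 of CPM plus 1), with 1 filled point per tumor for neutrophils and 1 open point for mononuclear phagocytes. Mmp8, Mmp9, Cxcl2, Il1b and Mxd1 had every neutrophil point above every phagocyte point, and Ccl3 had points of both classes in the same range.

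Calls among the granule genes fell on specific and gelatinase granules, whose medians were alike. None of the 5 azurophil granule genes was abundant enough to test, and Mpo, the myeloperoxidase of these granules, was at 4.41, 0 and 0 in neutrophils. Of 8 specific granule genes, 3 were tested and 2 were higher, with a median of 3.31. The study names 7 of these 8, and 2 of the 7 gelatinase granule genes. Lcn2, whose lipocalin binds bacterial iron carriers, was at 2456, 3404 and 583 in neutrophils and 34.99, 3.41 and 2.18 in phagocytes. Every neutrophil value was above every phagocyte value, and the log2 fold change was 7.53 ± 0.64 (adjusted p = 5.35e-06). Hp, the haptoglobin gene, was at 1523, 2063 and 887 against 519.5, 167 and 32.7, again without overlap, and was higher by 3.31 ± 0.51 (adjusted p = 0.000781). Camp and Ngp, which encode cathelicidin and another specific granule protein, were not tested and had no UMI in tumor 3. Ngp stood at 2299.7, 4055 and 0 in the 3 tumors and Camp at 1433, 3999 and 0.

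Of 7 genes listed here under gelatinase granules, 6 were tested and 4 were higher, with a median of 3.32. Mmp8 was on this list, although its product is usually assigned to specific granules. The counts and medians of the specific and gelatinase lists therefore do not divide these granules cleanly. Mmp9, which encodes gelatinase B, was at 851, 659 and 709 in neutrophils and 0.683, 0 and 13.1 in phagocytes. Its 3 neutrophil values lay close together, far above the other class, and it was higher by 8.47 ± 0.97 (adjusted p = 6.41e-05). Mmp8, the neutrophil collagenase gene, was at 743, 1071 and 127 against 29.7, 20.5 and 2.18 and was higher by 5.40 ± 0.54 (adjusted p = 1.93e-05). Tumor 3 had the lowest Mmp8 and Lcn2, yet the classes did not overlap. The peptidoglycan-binding gene Pglyrp1 and the sheddase gene Adam8 were also higher, by 3.099 and 3.54. After thinning every cell to 500 UMIs, Mmp9 had a UMI in 34.9%, 19.2% and 31.6% of neutrophils (69.5%, 69.2% and 68.4% before thinning), and in 0% of T cells in all 3 tumors. The T cells, with medians of 5588.5, 1508 and 1643 UMIs, serve as a measure of free RNA, and 0 of 122, 15 and 5 cells allow shares of up to 2.46%, 20% and 60%. Mmp8 had one in 16.9%, 30.8% and 10.5% of thinned neutrophils (38.2%, 53.8% and 15.8% before).

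Of the anti-apoptotic genes, 10 of 11 were tested, 2 were higher and 1 was lower, with a median of -0.17. Mcl1, whose unstable product sets neutrophil lifespan, was at 3191, 1825 and 1647 in neutrophils and 750.3, 475 and 440.1 in phagocytes. The lowest neutrophil value exceeded the highest phagocyte value, and the gene was higher by 2.07 ± 0.40 (adjusted p = 0.00337). Pim1, a kinase gene induced by cytokine receptors, was at 1407, 841 and 1089 against 307, 232 and 259, without overlap, and was higher by 2.14 ± 0.41 (adjusted p = 0.00384). Bcl2, the founding member of the family, had UMIs in the neutrophils of tumor 1 alone, at 17.7, 0 and 0 against 104, 81.9 and 50.1 in phagocytes, and was lower, with a log2 fold change of -2.69 ± 0.68 (adjusted p = 0.0197). Without tumor 2 this call of Bcl2 was lost (adjusted p = 0.0584). The Bcl2a1 genes, near-identical copies between which reads cannot be divided with certainty, were not called. Of 11 pro-apoptotic genes, 8 were tested and 1 was higher, with a median of 0.49. It was the death receptor gene Fas, at 86.1, 71.4 and 177 against 32.8, 27.3 and 21.8, without overlap, higher by 1.98 ± 0.49 (adjusted p = 0.0174, 0.134 without tumor 3 and 0.126 with the authors' corrected counts).

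The chemokine ligand genes moved apart: of 13, 7 were tested, 2 were higher, 2 were lower, and the median was -0.32. The study names 6 of the 13. Cxcl2, a CXCR2 ligand that attracts neutrophils and whose promoter is shown above, was at 6475, 5895 and 5498 in neutrophils and 323, 174 and 218 in phagocytes. The classes lay far apart in every tumor, with a log2 fold change of 4.77 ± 0.42 (adjusted p = 6.72e-06). Its relative Cxcl3, another CXCR2 ligand, was at 172, 55.5 and 101 against 1.37, 0 and 0 and was higher by 7.48 ± 0.75 (adjusted p = 1.94e-05). Cxcl16, which attracts CXCR6+ lymphocytes, had no UMI in the neutrophils of tumors 2 and 3. Its levels of 19.9, 0 and 0 against 133, 266 and 329 gave a log2 fold change of -3.50 ± 0.70 (adjusted p = 0.00457). Ccl9, a CCR1 ligand gene, was also lower, at 81.7, 7.93 and 0 against 355, 99.01 and 76.3, with overlapping values and a log2 fold change of -2.21 ± 0.57 (adjusted p = 0.0210, and 0.131 without tumor 2). Ccl3 and Ccl4, which encode inflammatory CC chemokines, overlapped between the classes. Ccl3 was at 142, 23.8 and 253 in neutrophils and 168, 109 and 194 in phagocytes, a log2 difference of -0.32 ± 0.49 (adjusted p = 0.785), and Ccl4 differed by -0.33 ± 0.48 (adjusted p = 0.773).

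After thinning, Cxcl2 had a UMI in 67.5%, 73.1% and 63.2% of neutrophils (79.5%, 78.8% and 78.9% before), in 6.82%, 1.96% and 6.52% of phagocytes, and in 3.28%, 6.67% and 0% of T cells. Ccl3 had a UMI in 4.02%, 1.92% and 15.8% of thinned neutrophils (9.64%, 5.77% and 21.1% before), and in 0% of thinned T cells in each tumor. In tumor 3 these were few of 19 cells. The chemokine genes therefore ranged from one detected in most neutrophils to one detected in few.

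Among cytokines and growth factors, 6 of 16 genes were tested and 4 were higher, with a median of 2.83. The study names 3 of the 16. Il1b, the proinflammatory interleukin-1β gene, was at 8298, 5665 and 6460.4 in neutrophils and 904, 601 and 911 in phagocytes, without overlap, and was higher by 3.17 ± 0.40 (adjusted p = 0.000161). Thinned neutrophils had an Il1b UMI in 89.2%, 73.1% and 78.9% of cells (97.2%, 86.5% and 94.7% before), phagocytes in 25.9%, 23.5% and 25%, and T cells in none. Csf1, the growth factor of macrophages, was at 477, 63.5 and 279 against 11.3, 17.1 and 4.36. The neutrophils of tumor 2 were lowest in Csf1 but still above all phagocyte values, and the gene was higher by 4.94 ± 0.74 (adjusted p = 0.000614). Csf1 had a UMI in 17.3%, 3.85% and 21.1% of thinned neutrophils (43.4%, 11.5% and 42.1% before) and in none of the thinned phagocytes, which allows up to 0.539%, 5.88% and 3.26%. Osm, which encodes oncostatin M of the interleukin-6 family, was at 392, 349 and 532 against 27.3, 3.41 and 37.04, without overlap, and was higher by 4.42 ± 0.55 (adjusted p = 0.000133). Il1rn, the interleukin-1 receptor antagonist gene, was higher by 2.49 (adjusted p = 0.00198).

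Of 10 chemoattractant receptor genes, 9 were tested and 5 were higher, with a median of 1.88, while none of the 12 cytokine receptor genes tested was called (median -0.02). The cytokine receptor genes Csf3r and Il1r2, of the rule for neutrophils, and Csf1r, of the rule for phagocytes, were not tested. Ccr1, a receptor of CCL3 and related ligands, was at 974, 635 and 557 in neutrophils and 67.1, 34.1 and 37.04 in phagocytes, without overlap, and was higher by 4.10 ± 0.47 (adjusted p = 6.38e-05). The C5a receptor gene C5ar1 (3.27), the chemerin receptor gene Ccrl2 (2.19), the formyl peptide receptor gene Fpr1 (2.24) and the receptor of platelet-activating factor Ptafr (1.88) were higher as well. The calls of Ccrl2 and Ptafr were lost without tumor 3 (adjusted p = 0.0702 and 0.154), and that of Fpr1 without tumor 1 (adjusted p = 0.258). Cxcr4, the CXCL12 receptor that retains neutrophils in marrow, varied among tumors, at 772, 87.3 and 785 in neutrophils against 270.0, 167 and 161 in phagocytes. The neutrophils of tumor 2 were below every phagocyte value and those of tumors 1 and 3 above, and the difference of 1.20 ± 0.57 was not called (adjusted p = 0.227).

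Genes of innate recognition were higher in 6 of 11 tested, with a median of 2.38. Trem1, an amplifying receptor of myeloid cells, was at 929, 746 and 355 in neutrophils and 28.2, 6.83 and 19.6 in phagocytes, without overlap, and was higher by 5.31 ± 0.60 (adjusted p = 5.10e-05). The lectin receptor genes Clec4d (3.47) and Clec4e (2.66), the endotoxin co-receptor gene Cd14 (3.19), the inflammasome sensor gene Nlrp3 (3.53) and Trem3 (2.38) were also higher. In contrast, 2 of 5 Fc receptor genes were lower and none was higher (median -2.02), namely Fcgr1 at -3.03 and Fcgr4 at -2.42. The call of Fcgr4 was lost without tumor 2 (adjusted p = 0.0651). Of 7 genes of the oxidative burst and of extracellular traps tested, only Ncf1, an oxidase subunit gene, was called, higher by 1.77 (adjusted p = 0.0237, and 0.129 without tumor 2).

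Of 10 adhesion genes tested, 2 were higher, with a median of -0.05. Selplg, a selectin ligand gene, was higher by 1.85 (adjusted p = 0.0207, and 0.0608 without tumor 2). Among suppressive enzymes and ligands, 3 of 4 genes tested were higher, with a median of 3.06. Ptgs2, which encodes cyclooxygenase 2 of prostaglandin synthesis, was at 638, 159 and 355 against 33.8, 13.7 and 8.72, with the lowest neutrophil value above the highest phagocyte value, and was higher by 4.53 ± 0.52 (adjusted p = 6.65e-05). Arg2, the mitochondrial arginase gene, was higher by 4.31, and Alox5ap, of leukotriene synthesis, by 1.82. The call of Alox5ap was lost without tumor 2 (adjusted p = 0.271).

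Of 24 transcription regulator genes tested, 7 were higher and 2 lower, with a median of 0.77. Mxd1, a MYC antagonist that pairs with MAX, was at 2216, 1571 and 1419 in neutrophils and 34.6, 10.2 and 6.54 in phagocytes. No value overlapped, and the fold change of 6.92 ± 0.52 was the largest on this list (adjusted p = 1.86e-06). Mxd1 had a UMI in 68.7%, 61.5% and 36.8% of thinned neutrophils (93.6%, 90.4% and 84.2% before) and in 2.46%, 0% and 0% of thinned T cells. Cebpd and Cebpb, of the C/EBP family, were higher by 2.72 and 1.92, and Cebpa, which acts earlier in granulocyte development, was lower at -2.40. The AP-1 genes Junb (2.03) and Fosl2 (2.58), the immediate early gene Egr1 (2.14) and the NF-kB inhibitor gene Nfkbia (1.49) were higher, and Klf4 was lower at -2.75. Leaving out 1 tumor ended the calls of Cebpd (without tumor 2, adjusted p = 0.0538), Cebpb and Egr1 (without tumor 3, 0.0547 and 0.111). The calls of Cebpa and Nfkbia were lost without tumor 2 (adjusted p = 0.115 and 0.179) and without tumor 3, and that of Nfkbia also with no filter on low genes (adjusted p = 0.120) and with corrected counts (0.0828).

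Of 15 hypoxia and glycolysis genes tested, 3 were higher and none lower (median 0.65). All 3 encode transporters, namely the glucose transporter genes Slc2a3 (5.73) and Slc2a1 (3.71) and the lactate exporter gene Slc16a3 (3.88). None of the other 12 genes tested, which include the glycolytic enzymes, was called. Interferon-stimulated genes were higher in 4 of 8 tested (median 1.68), led by Ifitm1 (7.09) and Slfn1 (4.63), followed by Isg15 (2.86) and Ifitm2 (1.64). Ifitm2 lost its call without tumor 2 (adjusted p = 0.144), without tumor 3, with no filter (0.0521) and with corrected counts (0.119). Of 11 genes of the lysosome and of iron handling, 4 were lower and none was higher (median -1.30), namely the cathepsin genes Ctsb (-3.75) and Ctsz (-3.22), Lamp1 (-3.16) and the heme oxygenase gene Hmox1 (-3.44). Hmox1 was not called without tumor 2 (adjusted p = 0.0575). Of 5 other S100 genes tested (median -1.08), S100a11 (3.22) and S100a6 (2.29) were higher and S100a4 (-2.93) was lower, and S100a6 lost its call without tumor 2 (adjusted p = 0.0538). None of the 9 cell cycle genes was called.

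Some of these list counts changed when marked cells were left out. Without neutrophils with phagocyte markers, 3 anti-apoptotic, 3 adhesion and 7 recognition genes were higher. In the same fit 1 pro-apoptotic, 1 chemoattractant receptor, 1 oxidative burst, 3 Fc receptor, 3 transcription regulator and 2 S100 genes were lower. Without neutrophils with markers of the 4 other types, 3 of 4 specific granule genes tested, 8 recognition, 3 oxidative burst, 3 adhesion and 5 of 9 interferon-stimulated genes were higher, and 1 of 6 chemokine ligand genes. In that fit 1 pro-apoptotic, 1 chemoattractant receptor, 1 oxidative burst, 1 adhesion, 3 Fc receptor, 5 lysosome and iron and 2 S100 genes were lower. The other lists kept their counts of higher and lower genes in both fits, except that 2 of 2 stefin genes were tested and higher in the last.

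The stefin A genes, a mouse cluster of cysteine protease inhibitors with near-identical members, were almost absent from phagocytes. All 3 genes tested were higher, and reads of these copies cannot be assigned with certainty. Stfa2l1 was at 463, 611 and 456 in neutrophils and had 2 UMIs in all phagocytes, so that its level over all tumors was 1588 times higher (95% counting interval 438 to 13152). Il1f9, which encodes interleukin-36γ, had a single UMI in phagocytes and a ratio of 1123 (199 to 44586). Mrgpra2b, a receptor gene known from mouse neutrophils, had none and was at least 288-fold higher, taking 3 UMIs over all phagocytes as the floor. The genes with the largest fold changes in the other direction included macrophage genes. Cd5l, Gdf15 and C3ar1 had no UMI in neutrophils and were at least 46.6-fold, 15.7-fold and 15.6-fold lower, against 3 UMIs over all neutrophils, and the complement genes C1qc (-6.71) and C1qb (-6.64) and Apoe (-5.83) followed. The complement gene C1qa was part of the rule for phagocytes, and C1qc and C1qb are its partners in the same complex.

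States within the neutrophils were described along the share of a cell's UMIs that came from S100a8 and S100a9. This share had medians of 4.05%, 9.28% and 0.259% in tumors 1, 2 and 3 and reached 44.9%, 36.5% and 18.7%. The neutrophils of tumor 2 were highest at the median and those of tumor 3 lowest, and the ranges of all tumors overlapped. It was over 10% in 88, 22 and 3 neutrophils, under 1% in 67, 8 and 12, and 0 in 23, 2 and 6. Cells with all 6 genes of the rule had medians of 12.4%, 12.8% and 11.2%. Mononuclear phagocytes had a median of 0% in each tumor, and S100a9 stood at 31.2, 0 and 0 CPM in T cells.

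**Figure D2:**
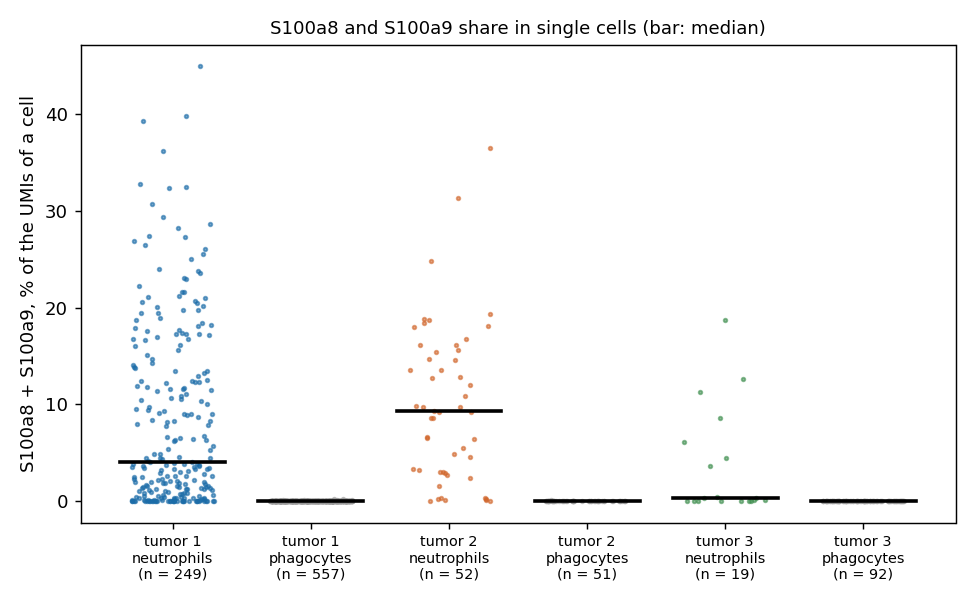
Share of each cell's UMIs from S100a8 and S100a9 in percent, with 1 point per cell and the tumors side by side. Neutrophils are colored, mononuclear phagocytes of the same tumor are grey, and bars are medians. The neutrophils of tumor 1 spread from 0% to 44.9%, and 12 of the 19 neutrophils of tumor 3 are under 1%.

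Cells were divided at the median share of each tumor into S100-high (125, 26 and 10 cells) and S100-low neutrophils (124, 26 and 9 cells). This cut is a point on a range and not a border between cell types, and 27, 8 and 12 cells lay within 1 percentage point of it. S100a8 and S100a9 were left out of the sums, so levels below are CPM of all other UMIs, and the genes of the rule were not tested. S100-high cells had medians of 2951, 2561 and 2362 UMIs and S100-low cells 2355.5, 1957 and 1904. S100-low cells held 14 of the 16 cells with phagocyte markers in tumor 1, which gave 36.7% of its UMIs, and 28, 9 and 0 cells with markers of the 4 other types, against 10, 4 and 2 among S100-high cells.

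Of 946 genes tested in the same edgeR fit with the tumor as a block, 9 were higher in S100-high cells and 0 were lower. The background share of calls was 0.951% higher and 0% lower, the median log2 fold change was 0.16, and before adjustment 185 genes were higher and 27 lower at p under 0.05. DESeq2 called 12 higher and 0 lower. Without the cells with phagocyte markers, 75 of 954 genes were higher (7.86%) and 3 lower (0.314%), and without the cells with markers of the 4 other types 19 of 682 were higher (2.79%) and 3 lower (0.44%). In all cells, 6.45% of the genes had every S100-high value above every S100-low value, and 2.11% the reverse. Leaving out a tumor raised the count, and 36 genes were called higher without tumor 1, 47 without tumor 2 and 70 without tumor 3 (of 650, 3060 and 3290 tested), with 2, 28 and 45 lower.

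The 9 genes included Mmp8, Ifitm6, Wfdc21, R3hdm4, Anxa1, S100a11, S100a6 and Prr13, and each of the 9 was higher in 3 of 3 tumors. Mmp8 was at 1741, 1960.3 and 236 in S100-high cells and 114, 387 and 0 in S100-low cells. The values of tumor 3 were lowest in both sets, so the sets overlapped across tumors, and the difference within tumors was 3.56 ± 0.52 (adjusted p = 0.0400 in edgeR). Wfdc21, a whey acidic protein gene, was at 4683, 5676 and 1555 against 413, 1548 and 120.3, with S100-high cells of tumor 3 only just above S100-low cells of tumor 2, and was higher by 3.09 ± 0.47 (adjusted p = 0.0400). S100a6, a calcium-binding relative of the genes that set the order, was at 4396, 4364 and 2450.1 against 1835, 1084 and 541, without overlap, and was higher by 1.97 ± 0.28 (adjusted p = 0.0400). Ifitm6, of the interferon-induced transmembrane family, was at 912, 2949 and 94.2 against 131, 290.3 and 0, overlapping across tumors, and was higher by 3.36 ± 0.35 (adjusted p = 0.0210). Anxa1, whose annexin A1 is stored in neutrophils and dampens their recruitment, was at 1384, 1585 and 518 against 314, 309.6 and 180.4, without overlap, and was higher by 2.40 ± 0.34 (adjusted p = 0.0400). Without tumor 3, S100a6 and S100a11 were not called (adjusted p = 0.0913 and 0.111). Of the 9 calls, 6 of the 7 tested remained without tumor 1, 8 of 9 without tumor 2 and 7 of 9 without tumor 3.

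Calls of granule genes between S100-high and S100-low cells depended on which cells were left out. Of 8 specific granule genes, 6 were tested, with a median of 3.67 and no call in all cells. Of these, 5 were higher without cells with phagocyte markers, with a median of 3.70, and 1 without cells with markers of the 4 other types, with a median of 3.06. Of the 5, Camp, Ngp and Chil3 were higher in 2 of 3 tumors, with no UMI in tumor 3. Camp and Ngp also mark the 11 immature cells described below, of which 9 were S100-high. Of 4 genes tested on the gelatinase granule list, 1 was higher in all cells, namely Mmp8, which is usually assigned to specific granules. On this list 3 were higher without cells with phagocyte markers and 2 without cells with markers of the 4 other types. Lcn2, with the C/EBP motif shown above, was at 6008, 5745 and 989 in S100-high and 185, 1780.4 and 120.3 in S100-low cells. It was higher within every tumor but overlapped across tumors, since S100-low cells of tumor 2 exceeded S100-high cells of tumor 3. Its difference of 3.56 ± 0.80 missed the threshold in all cells (adjusted p = 0.0922) and passed without cells with phagocyte markers (3.34, adjusted p = 0.00806) and without cells with markers of the 4 other types (2.86, adjusted p = 0.0489).

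Csf1 ran against this order. It was at 225, 17.05 and 236 in S100-high and 758, 135 and 361 in S100-low cells, lower in S100-high cells of all 3 tumors, with overlap across tumors. In tumors 2 and 3 this direction rests on few Csf1 UMIs. The S100-high and S100-low sums held only 58663 and 51675 UMIs in tumor 2, and 21224 and 16626 in tumor 3. The log2 difference of -1.33 ± 0.38 was not called in all cells (adjusted p = 0.118), and was called without cells with phagocyte markers (-1.72, adjusted p = 0.0161) and without cells with markers of the 4 other types (-2.21, adjusted p = 0.0306). In the latter, Csf1 was at 245, 20.3 and 300.1 in S100-high and 1308, 120.3 and 361 in S100-low cells. Without cells with phagocyte markers, the 2 other genes called lower were Igfbp6, a binding protein of insulin-like growth factors (-1.90, adjusted p = 0.0277), and the lamin gene Lmna (-2.65, adjusted p = 0.0206). Neither was called without cells with markers of the 4 other types. In tumor 1, fibroblast markers were at 5715 CPM in S100-low and 239 in S100-high cells, mostly from a single barcode, and their part in these calls was not tested. Without cells with markers of the 4 other types they were the stress-induced genes Atf3 (-1.29, adjusted p = 0.0387) and Ppp1r15a (-1.47, adjusted p = 0.0490), which were chosen after their values were seen.

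For Il1b, Cxcl2 and Mcl1 no difference was called between S100-high and S100-low cells. Il1b was at 10497, 4943 and 7067 against 8142, 8205 and 6315, higher in S100-high cells of tumors 1 and 3 and lower in tumor 2, a difference of 0.13 ± 0.34 (adjusted p = 0.824). The direction of Il1b turned in most alternatives, given in the closing section. Cxcl2 was at 9534, 6819 and 7821 against 5323, 6638 and 3067, higher in all 3 tumors, without overlap, by 0.92 ± 0.33 (adjusted p = 0.162). Without cells with markers of the 4 other types Cxcl2 was at 9533, 7039 and 7983 against 9761, 7883 and 3067, and then no longer higher in tumors 1 and 2, with a fitted difference of 0.33. Mcl1 differed by 0.77 ± 0.29 (adjusted p = 0.176) and the receptor gene Cxcr4 by -0.62 ± 0.40 (adjusted p = 0.358). Without cells with markers of the 4 other types the difference of Cxcr4 was -1.33 (adjusted p = 0.0556).

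**Figure D3:**
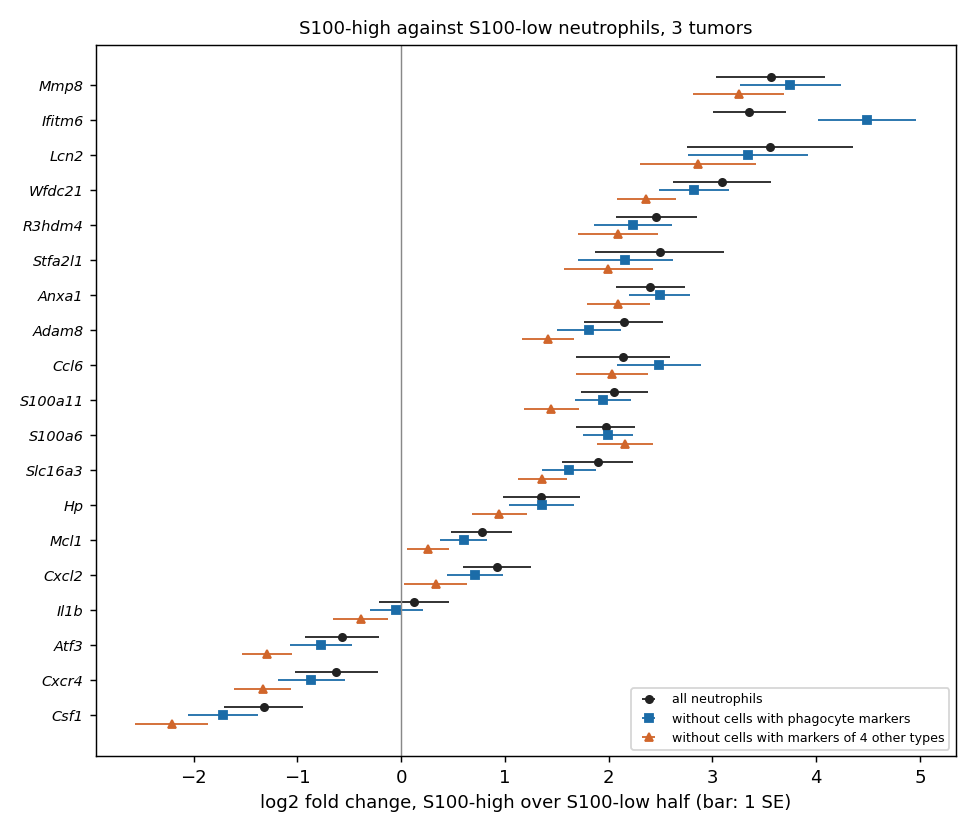
Log2 fold change of S100-high against S100-low neutrophils for named genes, with bars of 1 SE, in all cells, without cells with phagocyte markers and without cells with markers of the 4 other types. Mmp8, Lcn2 and Wfdc21 lie to the right of 0 and Csf1 to the left in all 3 fits, and Il1b lies close to 0.

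Dividing each tumor's neutrophils into 3 equal parts by the S100 share, low, middle and high, gave different orders of level for Lcn2 and for Cxcl2. In tumor 1, Lcn2 was at 103.8, 692 and 8424 CPM from low to high, and in tumor 2 at 1509.6, 1395 and 8212. In both tumors the high part carried most of it, as it did in tumor 3 (168, 0 and 1605), where the parts hold 6, 7 and 6 cells. Cxcl2 was at 4366, 9769.8 and 9064 in tumor 1, 4749, 9968 and 5173 in tumor 2, and 1937, 10782 and 4204 in tumor 3. The middle part held the most Cxcl2 in all 3 tumors. Without cells with markers of the 4 other types the low part of tumor 1 was at 10553 and was then the highest of that tumor, while the middle part remained highest in tumors 2 and 3. These are descriptions of sums without a test.

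**Figure D4:**
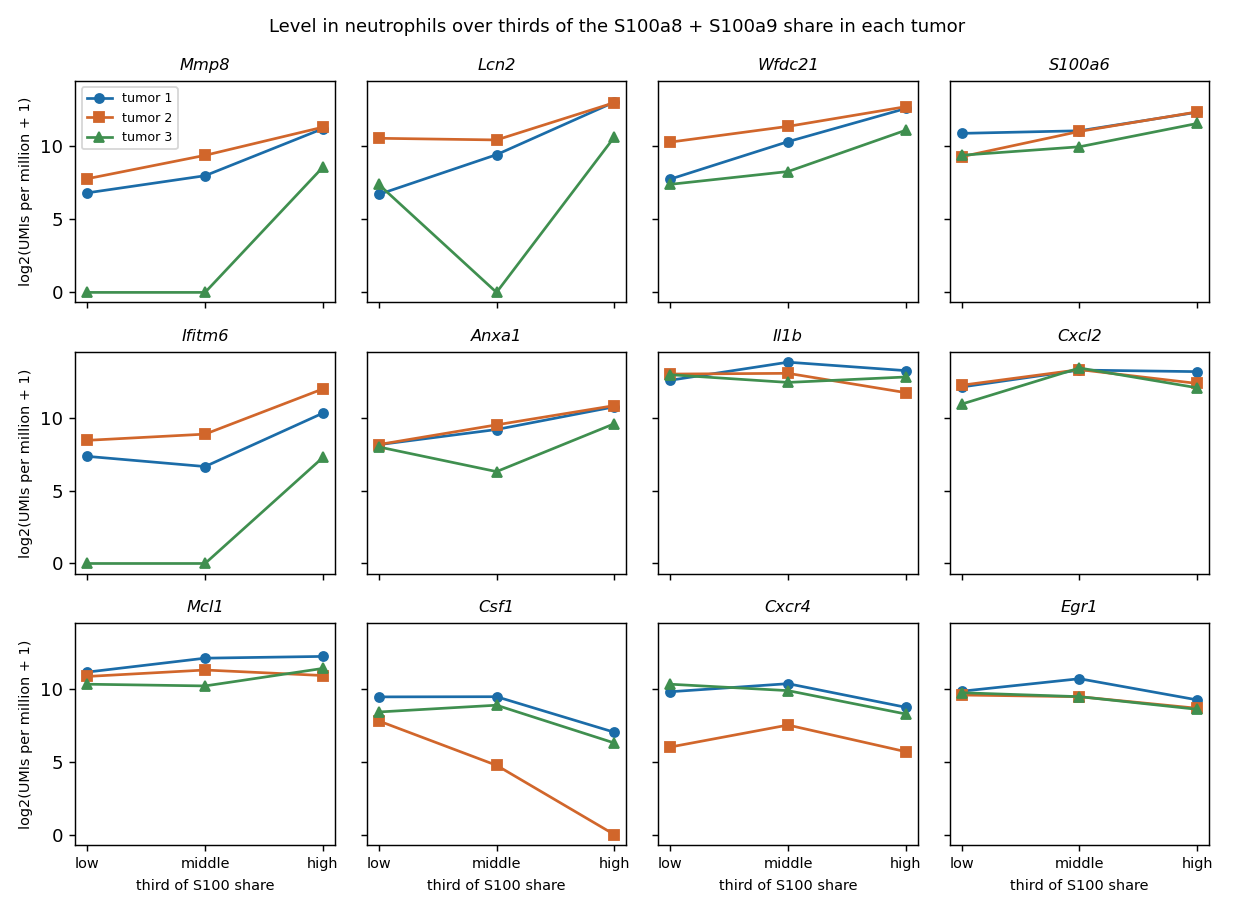
Level of named genes (log2 of CPM plus 1, without S100a8 and S100a9) in the low, middle and high part of each tumor's neutrophils by S100 share, with 1 line per tumor. Lcn2 and Mmp8 are highest in the high part of every tumor, Csf1 is lowest there in every tumor, and Cxcl2 is highest in the middle part.

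Few cells carried 2 or more of the specific granule genes used here to mark immature cells. The azurophil granule genes, of the granules filled first, were too scarce to test, so an earlier stage was not assessed. Neutrophils with 2 or more of the specific granule genes Camp, Ngp and Ltf, which are made before neutrophils leave the marrow, numbered 7 in tumor 1 (2.81%, exact interval 1.14 to 5.71) and 4 in tumor 2 (7.69%, 2.14 to 18.5). Tumor 3 had 0 of 19, which allows a share of up to 15.8%. Of these 11 cells, 9 were S100-high. Camp was at 3644, 7824 and 0 in S100-high and 2.15, 871 and 0 in S100-low cells, so that it was carried by S100-high cells in tumor 1 and by both sets in tumor 2. Without these cells, 12 genes were called higher in S100-high cells and 0 lower, and 7 of the 9 genes above were among them.

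Siglecf, a lectin receptor gene of eosinophils that is also described on neutrophils in tumors, had a UMI in 4.82% of the thinned neutrophils of tumor 1 (10.0% before). No thinned neutrophil of tumors 2 and 3 had one (1.92% and 0% before), which allows up to 5.77% and 15.8%. Thinned phagocytes, T cells and tumor cells had none in any tumor, and before thinning only the tumor cells of tumor 3 did (0.134%). The remaining eosinophil markers were at 0 in tumor 1 except Ccr3.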

How the data were processed

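Whole tumors of 3 mice were profiled, and each tumor is 1 replicate. The authors deposited raw UMI counts per gene and barcode, made with Cell Ranger 3.1.0 on mm10 per the submitters' processing notes, which also name Seurat 3.1.5. A second deposited table holds corrected counts on a natural log scale, ln(1 + count). It covers the barcodes left after the authors removed ambient RNA, doublets and cells outside limits set for each tumor, so no doublet caller was run. This table defined the kept barcodes and served in 1 alternative, and all other results come from the raw counts. The correction also brought the depths of the classes closer together. In tumor 1 the sum of phagocytes fell from 5859360 to 1960245 and that of neutrophils from 906218 to 731472. The steps were run in Python 3.11.15 and R 4.3.3.

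Neutrophil markers selected the cells, so these markers were not tested. Counts were summed per tumor and class, low genes were removed with filterByExpr, and TMM factors and the quasi-likelihood test of edgeR 4.0.16 were used with the tumor as a block and Benjamini-Hochberg adjustment. Classes of a tumor come from the same mouse. Deviations from the class means correlated at 0.587, 0.230 and 0.320 between neutrophils and phagocytes of the same tumor (4911 genes), and at 0.796, 0.567 and 0.562 between S100-high and S100-low cells (952 genes). To compare how often a gene was detected, each cell was thinned to 500 UMIs (random seed 7), and intervals are exact binomial intervals at 95% that cover counting error only. The tests were tested on simulated sums with known changes. The simulated counts followed the fitted trend of dispersion, without the scatter of single genes around it. The shares recovered need therefore not hold for the real sums. In the real S100 comparison, 6 specific granule genes were tested with a median log2 fold change of 3.67, and 0 were called in all cells. Between neutrophils and phagocytes, edgeR recovered 2.17% of 2-fold and 58.9% of 4-fold changes, with 1 false call. Between S100-high and S100-low cells it recovered 43% and 97.8%, with 4 false calls. DESeq2 recovered fewer in each case. A gene not called against phagocytes can therefore still differ 2-fold or 4-fold.

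The members and the 21 gene lists (238 genes, 237 found in the files, 35 of them also named by the study) were chosen with earlier results of these data known. Lists are described by counts and medians, without a set test. Clec7a is not analysed here, and results for a few single genes are not reported here. Named genes are up to 4 of the most abundant genes per list, any called gene of a list, up to 6 called genes per direction with the largest fold change, the same sign in all 3 tumors and at least 50 CPM in the higher class, and the 15 genes with the most UMIs in neutrophils. Alternatives were DESeq2 1.42.0, other size factors, no filter, no block, corrected counts, other rules for cells and leaving out each tumor. Promoters are RefSeq sequences for 100 of 129 named genes.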

Additional observations from a re-analysis of the deposited data

Results flagged for a closer look

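Barcodes that the authors left out were not part of the comparisons, and 9 of them in tumor 1 met the rule for neutrophils, with 557 to 167214 UMIs (median 52466). Of these 9, 5 carried 2 or more phagocyte markers, and the median S100a8 and S100a9 share of their UMIs was 0.00429%. Tumors 2 and 3 had 1 such barcode each, with 10950 and 7708 UMIs and a mitochondrial share of 20% or more. They were drawn to attention because they show neutrophil genes in data outside the kept barcodes.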

How the results depend on the processing

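Depth limits the comparisons in tumor 3, whose 19 neutrophils gave 39471 UMIs, and all tests rest on 3 mice. The mean neutrophil share of 6.01% lay between 3.16% and 7.48% under other filters and marker rules. Without one tumor it lay between 2.51% and 8.63%. All were within 1 SD of the main value, but the SD of 6.31 exceeds the mean, so few values could fall outside it. With no filter on barcodes, tumors 1, 2 and 3 held 7.92%, 1.22% and 0.331%, each below its main interval. Against phagocytes, with 304 genes higher and 213 lower, the counts were 146 and 62 without the replicate block, 484 and 454 with no filter on low genes (16719 genes tested), and 198 and 329 with corrected counts (2222 tested). Lower genes numbered 355 with RLE size factors, 325 for cells with 4 or more markers and 374 without cells with markers of the 4 other types. Leaving out 1 tumor gave 296 to 496 higher and 174 to 503 lower. Of 848 values of 79 named genes, 779 kept their call, 69 lost it and 0 reversed, and 34 of the losses were without the block.

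Between S100-high and S100-low cells, with 9 genes higher and 0 lower, no gene was called without the replicate block (in edgeR, 30 were higher and 0 lower at p under 0.05 before adjustment). Counts of higher and lower genes were 21 and 2 with RLE size factors, 98 and 90 with no filter, 15 and 1 with corrected counts, 75 and 3 without cells with phagocyte markers, 22 and 3 with depth balanced, and 19 and 3 without cells with markers of the 4 other types. They were 70 and 4 without immature cells and cells with phagocyte markers. Higher genes numbered 32 for the outer parts of 3, and 5 when cells were placed by Csf1, Ccl3 and Ccl4, none of them among the 9. Leaving out 1 tumor gave 36 to 70 higher and 2 to 45 lower. The direction of Il1b turned with DESeq2 (-0.0570), RLE factors (-0.0570), corrected counts (-0.14), without cells with phagocyte markers (-0.0485) or with markers of the 4 other types (-0.39), for the outer parts (-0.19), placed by Csf1, Ccl3 and Ccl4 (-0.25), at equal depth (-0.11), and without tumor 1 (-0.28) or tumor 3 (-0.16), and was 0.33 without tumor 2. Cxcl2 turned with depth balanced (-0.10) and when placed by Csf1, Ccl3 and Ccl4 (-0.23). Of 242 values of 17 named genes, 179 kept their side of the threshold, 34 passed it, 17 lost it and 12 reversed. Alternatives without cells with markers of the 4 other types, without both kinds of cells and at equal depth were chosen after seeing the data. The median of all genes in this comparison was 0.17, and -0.09 with RLE factors. Beyond fewer genes, cells or tumors in an alternative, the cause was not tested.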
